A study of Homo sapiens with 9 samples.

Results

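The 33 genes described here encode the enzymes of glycolysis, the bifunctional enzymes that set the pace of phosphofructokinase, carriers of glucose and lactate, and a group of genes best known for their response to low oxygen. They were picked by symbol from a table of 56609 gene symbols. The list holds 17 enzymes of the pathway from hexokinase to lactate dehydrogenase, 2 regulators (PFKFB3 and PFKFB4), 3 transporters (SLC2A1, SLC2A3 and SLC16A3) and 11 hypoxia-response genes (CA9, CA12, VEGFA, ADM, NDRG1, BNIP3, BNIP3L, EGLN3, ANKRD37, P4HA1 and P4HA2). Their RNA was measured by sequencing in MCF10A, an established, non-tumorigenic line of human breast epithelial cells. The 3 high calcium samples received 10 mM calcium and the calcium ionophore ionomycin, whose dose the labels give as 1 mM, for 16 h. Calcium and ionomycin were given only together, so their effects cannot be told apart. The 3 TGFb3 samples received 10 nM transforming growth factor beta 3, a cytokine of the TGF-beta family, for 16 h, and the 3 control samples were left untreated. All 9 were grown in DMEM/F12 with horse serum, epidermal growth factor, hydrocortisone, cholera toxin and insulin, so insulin, which raises glucose uptake in many cells, was present in every group. The labels number the replicates but do not say that they were separate cultures. Any p-value therefore reflects the scatter among these 9 samples, part of which may be technical.

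Glycolysis splits glucose into pyruvate in a preparatory stage that spends ATP, from hexokinase to aldolase, and a payoff stage that regains it, from glyceraldehyde-3-phosphate dehydrogenase to pyruvate kinase. Lactate dehydrogenase then turns pyruvate into lactate and restores NAD+. When oxygen is scarce, prolyl hydroxylases no longer mark the HIF alpha subunits for destruction by the VHL complex, and HIF dimers bind DNA at sites with the core ACGTG or GCGTG near many glycolytic genes and the other hypoxia-response genes. Many of these genes also respond to other signals, and mammary epithelium raises glucose uptake when it makes milk, because lactose is built from glucose.

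Values are the deposited TPM (transcripts per 1000000, corrected for gene length), so levels of different genes can be compared within a sample while the read depth is unknown. A log2 difference is that between group means of log2(TPM + 1), and its SE comes from limma (n = 3 in each group). A gene was called at a Benjamini-Hochberg adjusted p under 0.05 over the 13968 symbols that averaged at least 1 TPM. Genes of the mitochondrial genome took 11.5 ± 0.371% of TPM in high calcium, 22.7 ± 0.588% in TGFb3 and 22.7 ± 0.914% in the controls. MALAT1, a nuclear noncoding RNA, stood at 424 ± 32.2 TPM in high calcium, 204 ± 12.4 TPM in TGFb3 and 158 ± 44.7 TPM in the controls. The median over all tested genes of the log2 difference was 0.22 in high calcium and -0.056 in TGFb3, so for genes named in high calcium the difference less that median is also given, as the value relative to the median gene. High calcium was also compared under 3 other scalings, named median ratio, no mitochondrial genes, and quantile, and values under them are given in that order. Of 14 epithelial markers of these cells 13 averaged at least 1 TPM, and KRT19 was below 1 TPM in all 9 samples. The summed level of the 14 ran 7667 to 7993 TPM in high calcium, 6125 to 6972 TPM in TGFb3 and 4209 to 4494 TPM in the controls. Of these markers 11 were called higher and 1 lower in high calcium, and 10 higher and 2 lower in TGFb3. Of all tested genes 46.1% were higher and 17% lower in high calcium, and 26.5% and 33.1% in TGFb3. After median ratio rescaling 10 markers were higher and 1 lower in high calcium, against 29.5% and 30.9% of all genes. EPCAM, an epithelial adhesion protein, averaged 397 ± 10.4, 118 ± 5.87 and 294 ± 15.4 TPM in high calcium, TGFb3 and the controls, and LAMB3, a laminin subunit, 256 ± 12.2, 571 ± 32.7 and 58.2 ± 5.18 TPM. Of 9 fibroblast markers 6 were below 1 TPM in every sample, with COL1A2 and THY1 at 0 throughout, and the summed level of the 9 was 61.3, 61.2 and 62.9 TPM in high calcium, 347, 351 and 349.8 TPM in TGFb3 and 44.6, 50.6 and 43.1 TPM in the controls. The endothelial, leukocyte and adipocyte lists had 4 of 6, 4 of 6 and 5 of 5 members below 1 TPM in all samples, with the leukocyte markers PTPRC and CD3E at 0. Summed endothelial markers ran 11.7 to 12.6 TPM in high calcium, 1.67 to 2.51 TPM in TGFb3 and 4.54 to 5.50 TPM in the controls. Summed leukocyte markers, nearly all CD14 and CD68, ran 53.0 to 73.9 TPM in high calcium, 10.8 to 15.6 TPM in TGFb3 and 19.6 to 23.4 TPM in the controls, and the adipocyte sum was at most 0.858 TPM. With mitochondrial genes left out, the median log2 difference over all genes in high calcium against control was 0.052, beside 0.22 with them. Beyond that rescaling, the part of the mitochondrial share, of MALAT1 and of these markers in the results below was not tested. In these bulk samples a change in the share of cells that use a gene and a change of its RNA per cell cannot be told apart.

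Of the 33 genes, 29 passed the filter on low values, and ENO2, CA9, EGLN3 and ANKRD37 did not. In high calcium against control, where 63.1% of all tested genes were called, 16 of the 29 were called higher, where 46.1% of all tested genes were called higher, and 9 were called lower, where 17% of all tested genes were. The median log2 difference was 0.27 for the 29 genes and 0.22 for all tested genes. After median ratio rescaling 12 were higher and 11 lower, against 29.5% and 30.9% of all genes. In TGFb3 against control, where 59.6% of all tested genes were called, 10 of the 29 were called higher, where 26.5% of all tested genes were, and 14 were called lower, where 33.1% were, with a median of -0.21 for the 29 and -0.056 for all tested genes. Both comparisons use the same 3 control samples. PFKP, PFKFB4, SLC2A1, VEGFA, NDRG1, BNIP3L, P4HA1 and P4HA2 were called higher in each of them, and TPI1, PGK1, PGAM1, ENO1, LDHA and LDHB lower, which the shared controls can favour. HK1, HK2, ALDOC, GAPDH and SLC16A3 were called higher in high calcium and lower in TGFb3, but under median ratio rescaling the high calcium differences of HK1 and GAPDH were below 0 and not called. PFKFB3 and CA12 were called the other way round. By pathway position, the 8 enzymes from hexokinase to aldolase gave 5 higher, 0 lower and 3 not called in high calcium, and 1 higher, 6 lower and 1 not called in TGFb3. The 9 enzymes from triose-phosphate isomerase to lactate dehydrogenase, of which 8 were tested, gave 1 higher and 7 lower in high calcium, and 7 lower and 1 not called in TGFb3. After median ratio rescaling the first stage gave 3 higher and 2 lower in high calcium, and the second stage 0 higher and 7 lower.

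**Figure D1:**
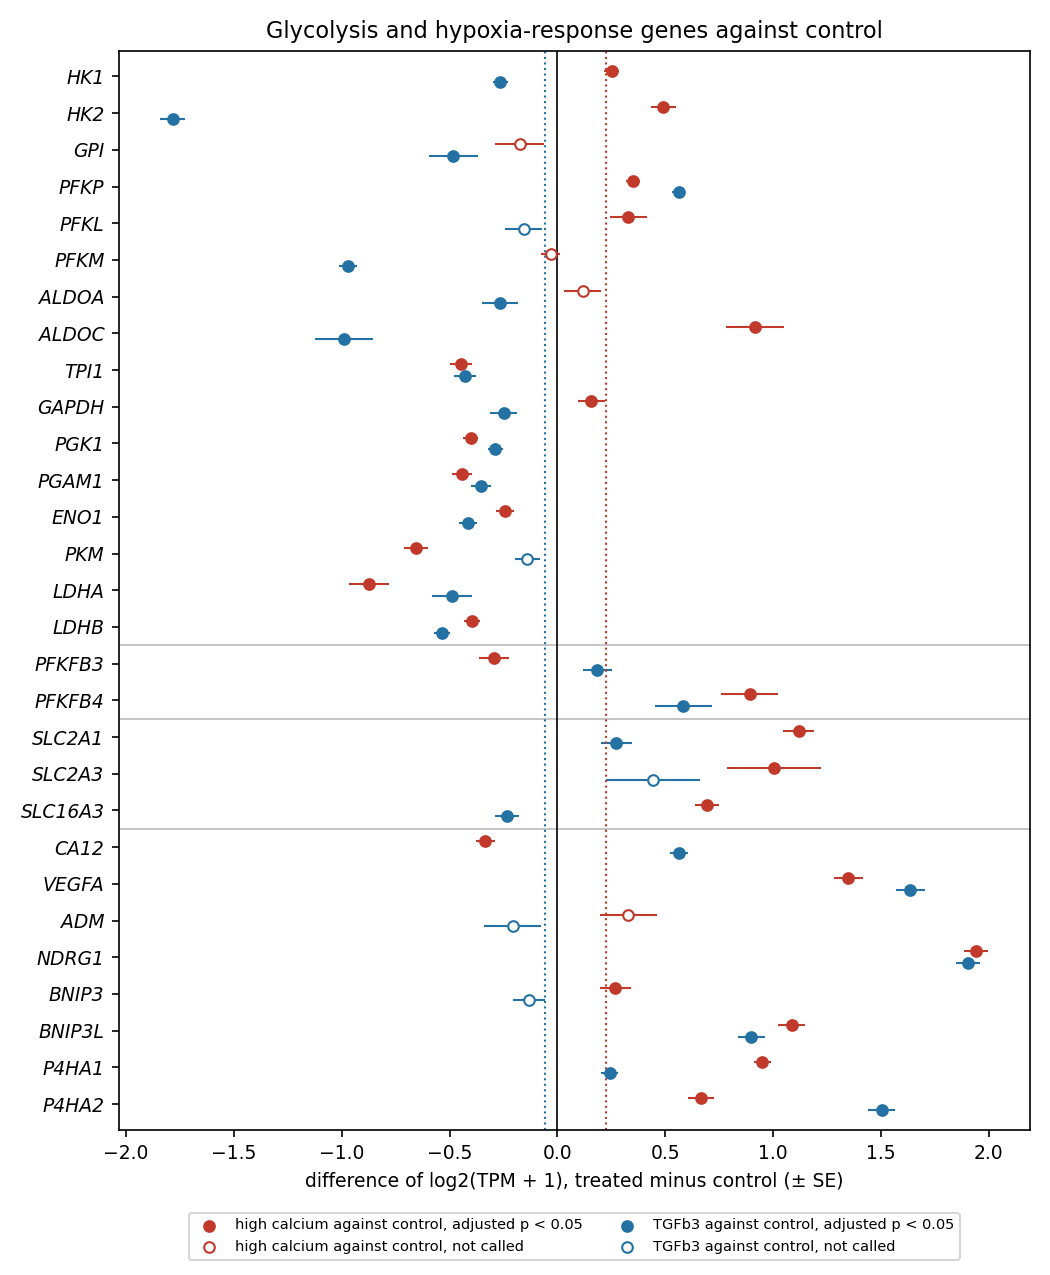
Difference of log2(TPM + 1), treated minus control, for the 29 tested genes in pathway order, with high calcium (red) above TGFb3 (blue) in each line. Bars are standard errors, open points were not called, grey lines part the roles, and dotted lines mark the medians of all tested genes (0.22 for high calcium, -0.056 for TGFb3). HK2 lies at 0.49 and -1.78, while NDRG1 lies at 1.94 and 1.90.

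RefSeq promoters on GRCh38.p14 were matched for 29 of the 33 genes and read over the 250 bases before each annotated start. These 29 are not the same set as the 29 tested genes. They include ENO2, CA9, EGLN3 and ANKRD37, which did not pass the filter. SLC2A3, VEGFA, NDRG1 and BNIP3L had no matched promoter and were not read, although all of them were called higher in high calcium. The HIF core ACGTG, searched on both strands, was present in 12 of the 29 (41.4%) and in 18.7% of all 27303 promoters of the same length. GCGTG was present in 10 (34.5%) against 31.9%, and either core in 18 (62.1%) against 43.1%. The palindrome CACGTG, which holds ACGTG on both strands and is the E-box read by MYC and USF factors, was present in 5 (17.2%) against 6.49%. TGACGTG, a core of elements bound by factors of the unfolded protein response that also contains ACGTG, was present in HK2 and ALDOA (6.90%) against 1.71%. The endoplasmic reticulum stress element, CCAAT and CCACG parted by 9 bases, was in 0 of the 29 and in 0.0806% of all. These matches describe letters in the window, and base composition was not matched between the sets. All promoters were the background, whether or not the gene was expressed here. The genes were listed for known roles in glycolysis and hypoxia, so the shares describe that list and not a response in these samples. The 5 promoters below were chosen with the values known. HK2 and ALDOC were higher in high calcium and lower in TGFb3, LDHA was lower in both, and P4HA1 and P4HA2 are paralogs that each rose more in a different treatment. Capitals mark ACGTG or GCGTG on either strand (CACGT or CACGC where the match is on the other strand), and each sequence reads 5′ to 3′ on its gene's strand. The windows lie at chr2:74833877-74834126 (plus), chr17:28576896-28577145 (minus), chr11:18394313-18394562 (plus), chr10:73096867-73097116 (minus) and chr5:132227092-132227341 (minus). All reach into the gene bodies that GENCODE release 29 annotates. Those of ALDOC and P4HA2 lie wholly inside, as these minus-strand genes begin at 28577264 and 132295315. Where a symbol had more than 1 RefSeq promoter, only the first listed was read.
HK2: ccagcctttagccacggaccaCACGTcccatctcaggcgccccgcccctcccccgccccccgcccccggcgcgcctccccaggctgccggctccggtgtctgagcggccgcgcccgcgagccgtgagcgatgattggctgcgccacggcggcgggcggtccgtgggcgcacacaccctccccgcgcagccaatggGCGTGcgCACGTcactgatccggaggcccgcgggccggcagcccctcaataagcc
ALDOC: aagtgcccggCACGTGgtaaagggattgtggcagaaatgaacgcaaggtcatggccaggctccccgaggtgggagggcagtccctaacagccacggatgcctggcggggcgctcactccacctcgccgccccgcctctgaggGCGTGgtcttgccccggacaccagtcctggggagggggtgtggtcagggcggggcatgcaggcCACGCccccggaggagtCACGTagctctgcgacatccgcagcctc
LDHA: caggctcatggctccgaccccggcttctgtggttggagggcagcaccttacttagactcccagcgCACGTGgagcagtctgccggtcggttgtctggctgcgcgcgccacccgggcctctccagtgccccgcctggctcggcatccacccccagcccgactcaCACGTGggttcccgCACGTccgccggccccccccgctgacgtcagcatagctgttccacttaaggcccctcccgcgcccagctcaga
P4HA1: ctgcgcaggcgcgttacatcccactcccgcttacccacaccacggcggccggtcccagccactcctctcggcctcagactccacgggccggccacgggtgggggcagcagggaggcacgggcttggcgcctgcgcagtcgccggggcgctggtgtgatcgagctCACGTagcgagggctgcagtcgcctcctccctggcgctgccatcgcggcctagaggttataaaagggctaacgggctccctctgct
P4HA2: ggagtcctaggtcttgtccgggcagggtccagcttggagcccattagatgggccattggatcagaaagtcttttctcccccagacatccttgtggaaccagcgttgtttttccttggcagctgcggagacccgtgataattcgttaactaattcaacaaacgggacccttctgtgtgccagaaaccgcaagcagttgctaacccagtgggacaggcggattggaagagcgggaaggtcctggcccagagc
The HK2 window holds ACGTG 2 times and GCGTG 1 time, and that of ALDOC holds them 3 and 2 times. The LDHA window holds ACGTG 5 times, counting both strands, with 2 CACGTG palindromes. The P4HA1 window holds 1 ACGTG and the P4HA2 window neither core, and any other starts of these genes were not read.

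Hexokinases trap glucose in the cell, and HK2 was higher in high calcium and lower in TGFb3 than in the controls. HK2, the inducible hexokinase (hg38 chromosome 2, 74833981 to 74893359, plus strand), was at 51.0, 48.7 and 47.8 TPM in high calcium, 9.33, 9.08 and 9.72 TPM in TGFb3 and 33.2, 34.1 and 36.9 TPM in the controls. Every high calcium sample lay above every control and every TGFb3 sample lay below every control. HK2 rose by log2 0.49 ± 0.058 (adjusted p = 4.4e-05) in high calcium, which is 0.27 relative to the median gene, and fell in TGFb3 with a log2 difference of -1.78 ± 0.058 (adjusted p = 7.6e-09). HK1, the constitutive hexokinase (hg38 chromosome 10, 69269984 to 69401884, plus strand), was more abundant, at 180.3, 185 and 184 TPM in high calcium, 132, 125 and 127 TPM in TGFb3 and 150.3, 157 and 154 TPM in the controls. The order of the groups was the same as for HK2, without overlap, over a narrower range. HK1 fell in TGFb3 (-0.26 ± 0.036, adjusted p = 0.00012). In high calcium it was called higher at 0.25 ± 0.036 (adjusted p = 0.00016), but only 0.027 above the median gene, and under the other scalings its difference was -0.0025, 0.056 and 0.12, called under quantile normalisation alone. The share of HK2 in the summed TPM of both hexokinases, a ratio inside each sample that multiplying a library by one factor leaves as it is, was 22.1, 20.8 and 20.6% in high calcium, 6.62, 6.77 and 7.11% in TGFb3 and 18.1, 17.8 and 19.3% in the controls. The TGFb3 shares stood far below all others, and the high calcium shares above those of the controls.

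GPI, which isomerises glucose 6-phosphate to fructose 6-phosphate, was at 316, 319 and 307 TPM in high calcium, 235, 311 and 224 TPM in TGFb3 and 330.1, 337 and 402 TPM in the controls. TGFb3 replicate 2 lay inside the high calcium range while the other TGFb3 samples were much lower, and both treated groups lay below all controls. GPI fell in TGFb3 (-0.48 ± 0.12, adjusted p = 0.0046) and was not called in high calcium (-0.18 ± 0.12, adjusted p = 0.21, or -0.40 relative to the median gene), although it was called lower there under median ratio rescaling (-0.43) and without mitochondrial genes (-0.37). Leaving out control replicate 3, the highest, took the high calcium difference to -0.086. In the annotation GPI overlaps AC092073.1 on the same strand, so their reads may be hard to part.

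The 3 phosphofructokinases, which commit sugar to glycolysis, moved apart. PFKP, the platelet form and the most abundant here, was at 259, 259.8 and 259 TPM in high calcium, 304, 294 and 302 TPM in TGFb3 and 201, 202 and 207 TPM in the controls. The 3 groups did not overlap, with TGFb3 highest and the controls lowest. PFKP rose in both treatments, by log2 0.35 ± 0.032 in high calcium (0.13 relative to the median gene; adjusted p = 6.5e-06) and by 0.56 ± 0.032 in TGFb3 (adjusted p = 2.4e-07). PFKM, the muscle form, was at 66.4, 70.0 and 66.9 TPM in high calcium, 34.1, 35.3 and 35.2 TPM in TGFb3 and 66.9, 70.6 and 70.4 TPM in the controls. Its TGFb3 samples were near one level, well under the other 6, and the high calcium samples overlapped the controls. PFKM fell in TGFb3 (-0.97 ± 0.043, adjusted p = 5.1e-08). In high calcium its difference was -0.032 ± 0.043 (adjusted p = 0.54), and it was called lower under the 3 other scalings (-0.28, -0.23 and -0.20). PFKL, the liver form, was at 33.9, 34.5 and 31.4 TPM in high calcium, 25.6, 22.4 and 22.4 TPM in TGFb3 and 23.05, 27.6 and 28.5 TPM in the controls. High calcium samples lay above the rest, and TGFb3 overlapped the controls. PFKL was called higher in high calcium (0.33 ± 0.087, adjusted p = 0.0075) but under none of the other scalings (0.082, 0.14 and 0.12). In TGFb3 it was not called (-0.16 ± 0.087, adjusted p = 0.15), except without control replicate 1, where the difference was -0.25. Summed over the 3 forms, phosphofructokinase was at 360.2 ± 3.66 TPM in high calcium, 359 ± 6.26 TPM in TGFb3 and 299 ± 7.64 TPM in the controls. PFKP made up 71.9 ± 0.591, 83.7 ± 0.236 and 68.0 ± 0.949% of those sums in high calcium, TGFb3 and the controls, and PFKM 18.8 ± 0.373, 9.73 ± 0.339 and 23.2 ± 0.312%.

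Aldolase splits fructose 1,6-bisphosphate into 2 trioses. ALDOC, the isoform known from brain, had low values of 13.3, 13.8 and 13.9 TPM in high calcium, 3.76, 2.67 and 2.42 TPM in TGFb3 and 6.34, 6.21 and 7.84 TPM in the controls. The groups did not overlap, and the order was that of HK2. ALDOC rose by log2 0.92 ± 0.13 (adjusted p = 0.00019) in high calcium (0.69 relative to the median gene) and its difference in TGFb3 was -0.99 ± 0.13 (adjusted p = 0.00012). ALDOA, the main form, was at 771, 668 and 784 TPM in high calcium, 621, 543 and 537 TPM in TGFb3 and 631, 665 and 753 TPM in the controls. The high calcium range covered most of the control range, and TGFb3 samples lay below it. In high calcium ALDOA was not called (0.12 ± 0.085, adjusted p = 0.25, or -0.11 relative to the median gene), and its difference was below 0 and not called under the 3 other scalings (-0.14, -0.078 and -0.017). In TGFb3 it was called lower (-0.27 ± 0.085, adjusted p = 0.021). That TGFb3 call was lost without TGFb3 replicate 2 (-0.24), without TGFb3 replicate 3 (-0.23) or without control replicate 3 (-0.19). ALDOC made up 1.82 ± 0.183% of aldolase TPM in high calcium, 0.514 ± 0.0791% in TGFb3 and 0.984 ± 0.0543% in the controls. ALDOA and ALDOC each overlap another annotated coding gene on the same strand (AC093512.2 and AC005726.1).

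**Figure D2:**
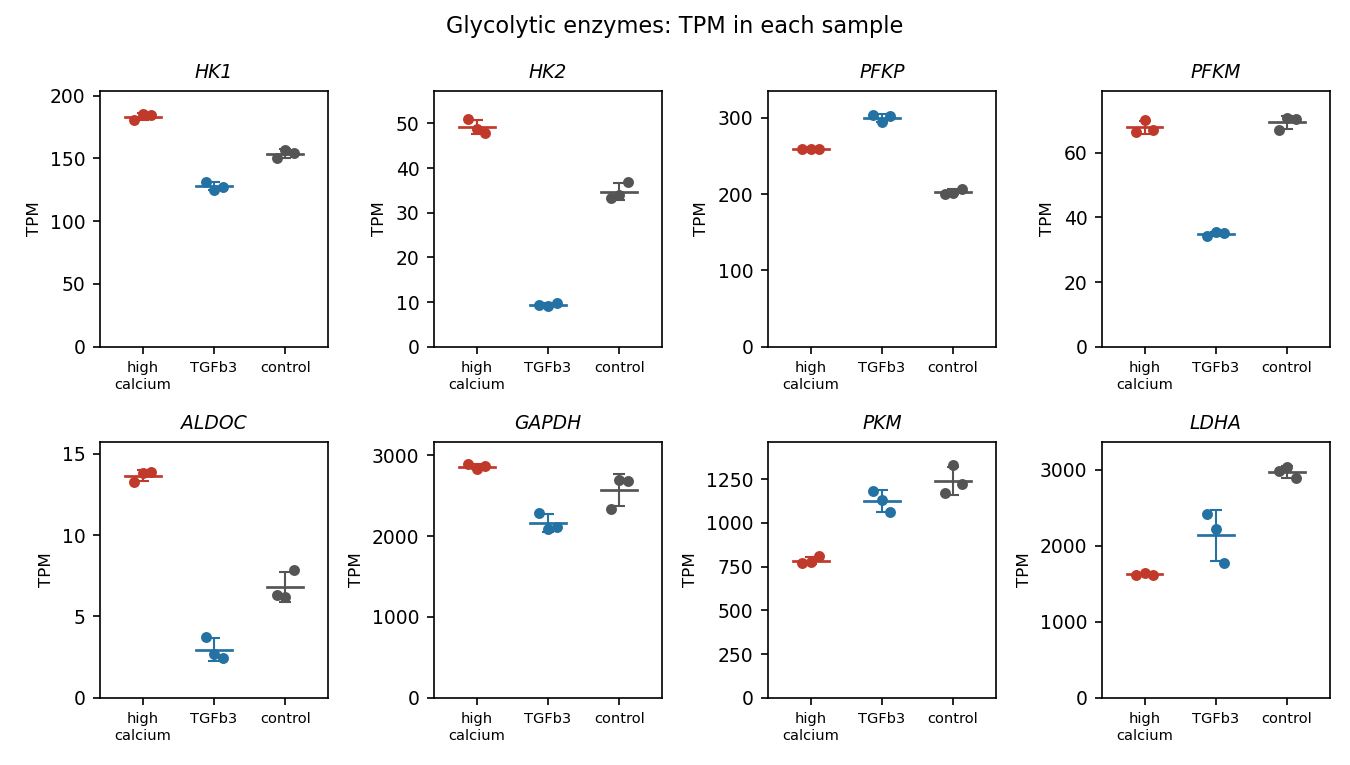
TPM of 8 glycolytic enzymes in each sample, with the group mean as a line and the SD as a bar (n = 3), in high calcium, TGFb3 and control from left to right; each axis starts at 0. HK2 and PFKM are lowest in TGFb3, at 9.38 and 34.9 TPM, and LDHA and PKM are lowest in high calcium, at 1623 and 785 TPM.

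From triose-phosphate isomerase on, lower values than in the controls were the rule in both treatments. TPI1, which interconverts the trioses, was at 439, 422 and 423 TPM in high calcium, 469.9, 414 and 421 TPM in TGFb3 and 569, 591 and 593 TPM in the controls. All 6 treated samples lay below all controls and the treated groups overlapped. Its log2 difference was -0.45 ± 0.05 (adjusted p = 2.9e-05) in high calcium and -0.43 ± 0.05 (adjusted p = 4.1e-05) in TGFb3. PGK1 and PGAM1, the kinase and mutase of phosphoglycerate, and ENO1, the main enolase, had the same relation to the controls, with means of 188 ± 1.59, 113 ± 5.56 and 1725 ± 7.50 TPM in high calcium, 204 ± 4.54, 121 ± 4.50 and 1532 ± 57.4 TPM in TGFb3 and 249 ± 5.81, 155 ± 2.42 and 2041 ± 67.7 TPM in the controls. Their differences were -0.40, -0.44 and -0.24 in high calcium (highest adjusted p = 0.00061) and -0.29, -0.36 and -0.41 in TGFb3 (highest adjusted p = 8e-05). Relative to the median gene the 4 falls in high calcium were -0.67, -0.63, -0.67 and -0.47. ENO2, the neuronal enolase, did not pass the filter, with 2.22, 1.04 and 1.06 TPM in high calcium, 0.446, 0.688 and 0.397 TPM in TGFb3 and 0.535, 0.439 and 0.639 TPM in the controls.

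GAPDH, the step that makes NADH and a gene often used as a reference in expression assays (hg38 chromosome 12, 6533927 to 6538374, plus strand), was at 2888, 2825 and 2870.2 TPM in high calcium, 2288, 2086 and 2108 TPM in TGFb3 and 2338, 2694 and 2682 TPM in the controls. Control replicate 1 was lower than the other controls, high calcium lay above all controls, and TGFb3 below them. In TGFb3 GAPDH fell (-0.25 ± 0.061, adjusted p = 0.0056). In high calcium it was called higher (0.16 ± 0.061, adjusted p = 0.047, or -0.067 relative to the median gene), but its difference was -0.098 under median ratio rescaling, -0.039 without mitochondrial genes and 0.075 under quantile normalisation, none of them called. The high calcium call was also lost without any one of the 3 high calcium samples (0.15, 0.17 and 0.15), without TGFb3 replicate 2 or 3 (0.16 in both) and without control replicate 1 (0.09). Its 62 annotated pseudogene copies held 0.234% of the summed TPM of GAPDH and its copies.

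PKM, the pyruvate kinase that forms pyruvate and ATP, and LDHA showed the largest falls in high calcium among the enzymes. PKM (hg38 chromosome 15, 72199029 to 72231822, minus strand) was at 771, 775 and 808 TPM in high calcium, 1182, 1129.5 and 1059.7 TPM in TGFb3 and 1168, 1328 and 1219 TPM in the controls. High calcium samples were well below the rest, and the TGFb3 range met the lower end of the controls. Its difference was -0.66 ± 0.057 (adjusted p = 4.4e-06) in high calcium, or -0.88 relative to the median gene. In TGFb3 PKM was not called (-0.14 ± 0.057, adjusted p = 0.056), but it was without mitochondrial genes (-0.14), under quantile normalisation (-0.18), without TGFb3 replicate 1 (-0.18) or control replicate 1 (-0.18), and the difference was -0.088 without control replicate 2. PKM makes splice forms M1 and M2, which gene-level values do not part. LDHA, the subunit that favours lactate formation (hg38 chromosome 11, 18394388 to 18408425, plus strand), was at 1609.8, 1642 and 1616 TPM in high calcium, 2421, 2219.6 and 1771 TPM in TGFb3 and 2989, 3039 and 2889 TPM in the controls. The high calcium samples were closely grouped and lowest, and the TGFb3 samples were spread between them and the controls. LDHA fell in both, with differences of -0.87 ± 0.094 (adjusted p = 2.2e-05) in high calcium, -1.10 relative to the median gene, and -0.49 ± 0.094 (adjusted p = 0.0012) in TGFb3. LDHB, the subunit that favours pyruvate formation, was at 1053, 1080.1 and 1077 TPM in high calcium, 992, 949.7 and 969.9 TPM in TGFb3 and 1365, 1451 and 1407 TPM in the controls. LDHB was lowest in TGFb3, and no groups overlapped, with differences of -0.39 ± 0.037 (adjusted p = 8.7e-06) in high calcium, -0.62 relative to the median gene, and -0.54 ± 0.037 (adjusted p = 1e-06) in TGFb3. LDHA made up 60.4, 60.3 and 60.0% of lactate dehydrogenase TPM in high calcium, 70.9, 70.0 and 64.6% in TGFb3 and 68.7, 67.7 and 67.3% in the controls. The high calcium shares lay below all others, while TGFb3 shares spread on both sides of the control shares. The 6 pseudogene copies of LDHA held 1.26% of the summed TPM of LDHA and its copies.

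Summed over the 17 enzymes, glycolytic RNA was at 10456 ± 84.0 TPM in high calcium, 10005 ± 612 TPM in TGFb3 and 12753 ± 461 TPM in the controls. Of TPM outside the mitochondrial genome it was 1.18 ± 0.0141%, 1.29 ± 0.0746% and 1.65 ± 0.0511% in the same order. These sums are dominated by GAPDH, LDHA and ENO1 and carry no test. By step, the log2 ratio of summed means to the control mean in high calcium was 0.30 for hexokinase, 0.27 for phosphofructokinase and -0.70 for lactate dehydrogenase. In TGFb3 it was -0.46, 0.26 and -0.50 for the same steps. These ratios are not corrected for the shift of the median gene, which stood 0.22 above the controls in high calcium. The high calcium ratios of hexokinase and phosphofructokinase lay only a little above that level, and that of lactate dehydrogenase lay far below it. Phosphofructokinase was the one step whose summed TPM was above all controls in every TGFb3 sample.

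**Figure D3:**
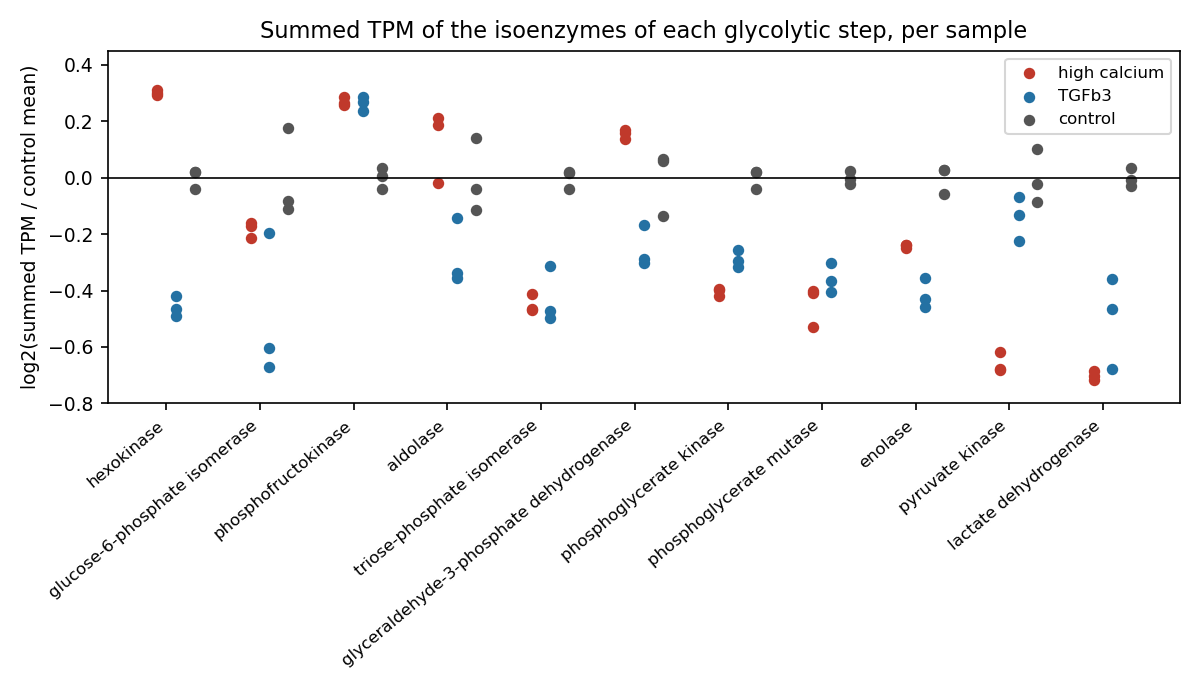
Summed TPM of the isoenzymes of each glycolytic step in each sample, as log2 of its ratio to the control mean, in step order from hexokinase to lactate dehydrogenase. The ratios are not corrected for the 0.22 by which the median gene was higher in high calcium than in the controls. High calcium samples (red) run from about the control level or above at hexokinase, phosphofructokinase, aldolase and glyceraldehyde-3-phosphate dehydrogenase down to -0.66 and -0.70 on average at pyruvate kinase and lactate dehydrogenase, while TGFb3 samples (blue) are above the controls (grey) at phosphofructokinase only.

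The isoenzyme shares give the same groups on a scale that does not depend on the total of each library. TGFb3 samples had the lowest shares of HK2, PFKM and ALDOC and the highest of PFKP, and high calcium samples had the lowest share of LDHA. Among pairs outside the pathway, P4HA2 made up 47.1 ± 1.81% of the 2 prolyl 4-hydroxylase alpha subunits in high calcium, 72.4 ± 1.74% in TGFb3 and 52.1 ± 0.316% in the controls. PFKFB4 made up 34.9 ± 4.43% of PFKFB3 and PFKFB4 together in high calcium, 22.7 ± 2.26% in TGFb3 and 16.99 ± 2.25% in the controls. BNIP3L made up 60.5 ± 1.10% of BNIP3 and BNIP3L in high calcium, 64.2 ± 0.342% in TGFb3 and 45.9 ± 1.16% in the controls. The shares are descriptions and were not tested.

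**Figure D4:**
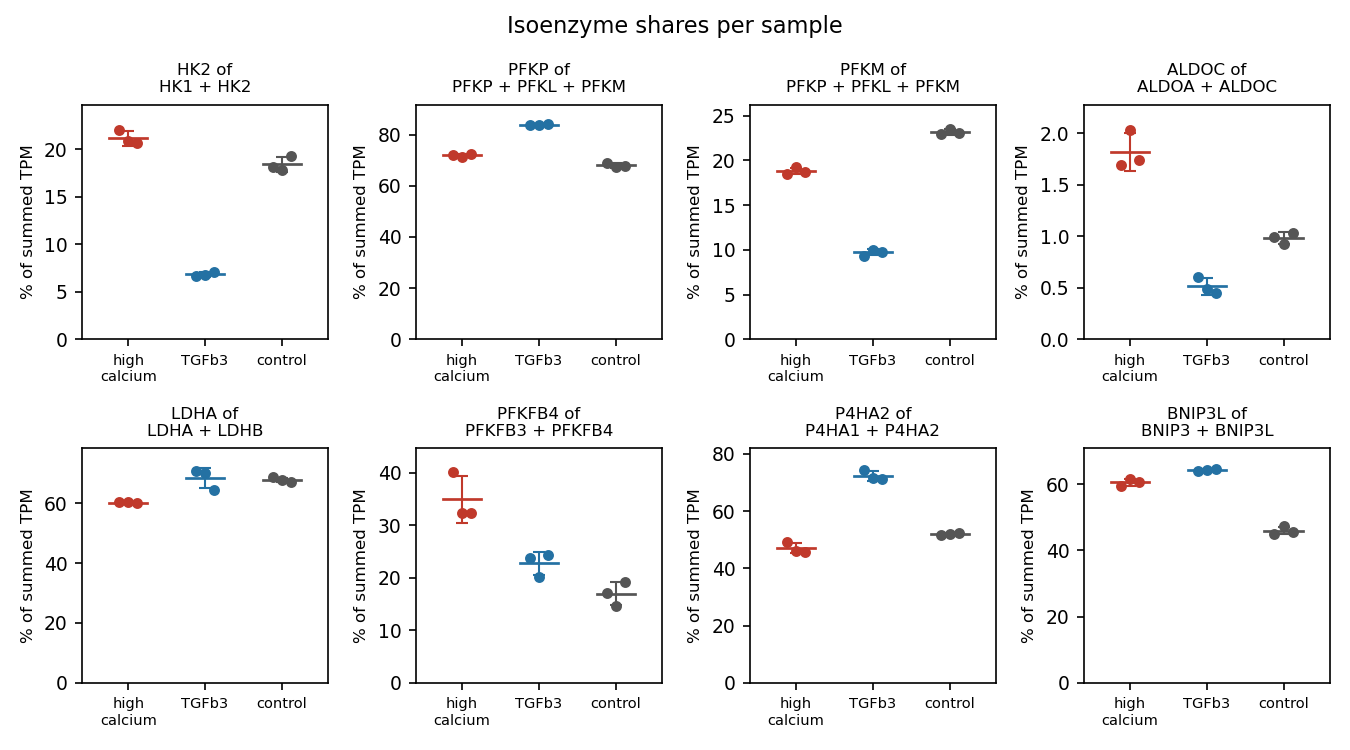
Share of 1 isoenzyme or paralog in the summed TPM of its family, in percent, for each sample, with the group mean as a line and the SD as a bar (n = 3), in high calcium, TGFb3 and control from left to right. HK2 averages 21.2, 6.83 and 18.4% of the hexokinases, and P4HA2 averages 47.1, 72.4 and 52.1% of the prolyl 4-hydroxylase subunits.

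PFKFB3 and PFKFB4 make and break fructose 2,6-bisphosphate, the strongest activator of phosphofructokinase, and PFKFB3 mostly makes it. PFKFB3 was at 12.6, 13.9 and 13.4 TPM in high calcium, 18.7, 20.5 and 17.8 TPM in TGFb3 and 16.3, 16.5 and 16.9 TPM in the controls. High calcium samples lay below the controls and TGFb3 samples above them, without overlap. PFKFB3 fell in high calcium (-0.30 ± 0.069, adjusted p = 0.0037, or -0.52 relative to the median gene). In TGFb3 it was called higher at 0.19 ± 0.069 (adjusted p = 0.039). This TGFb3 call was lost without TGFb3 replicate 1 (0.20) or 2 (0.13), without control replicate 1 (0.17), 2 (0.18) or 3 (0.20), and without high calcium replicate 3 (0.19). PFKFB4 was at 8.44, 6.66 and 6.41 TPM in high calcium, 5.82, 5.17 and 5.72 TPM in TGFb3 and 3.38, 2.83 and 4.01 TPM in the controls, with both treated groups above all controls. It rose by log2 0.89 ± 0.13 (adjusted p = 0.00021) in high calcium, or 0.67 relative to the median gene, and by 0.58 ± 0.13 (adjusted p = 0.0034) in TGFb3.

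The transporters were higher in high calcium. SLC2A1, the glucose carrier GLUT1 (hg38 chromosome 1, 42925375 to 42959176, minus strand), was at 69.5, 66.5 and 66.2 TPM in high calcium, 39.2, 37.8 and 34.4 TPM in TGFb3 and 30.3, 27.8 and 33.7 TPM in the controls. High calcium samples were at far above the control level, and TGFb3 samples lay just above the highest control. SLC2A1 rose by log2 1.12 ± 0.073 (adjusted p = 6.1e-07) in high calcium, 0.89 relative to the median gene, and by 0.27 ± 0.073 (adjusted p = 0.0086) in TGFb3. SLC16A3, the monocarboxylate carrier MCT4 that exports lactate, was at 217, 230.1 and 219 TPM in high calcium, 124, 112 and 112 TPM in TGFb3 and 129, 138 and 144 TPM in the controls. Its high calcium samples stood well above the rest, and TGFb3 samples lay below the controls. SLC16A3 rose by log2 0.69 ± 0.056 (adjusted p = 2.7e-06) in high calcium (0.47 relative to the median gene) and had a difference of -0.23 ± 0.056 (adjusted p = 0.0046) in TGFb3. SLC2A3, the high-affinity glucose carrier GLUT3, had low values of 2.08, 1.79 and 2.26 TPM in high calcium, 1.03, 1.01 and 1.14 TPM in TGFb3 and 0.344, 0.188 and 1.17 TPM in the controls. Control replicate 3 stood above the 3 TGFb3 samples, and the other controls below them. SLC2A3 was called higher in high calcium (1.00 ± 0.22, adjusted p = 0.0025, or 0.78 relative to the median gene) and not in TGFb3 (0.44 ± 0.22, adjusted p = 0.11). The TGFb3 difference was 0.70 and called without control replicate 3, and 0.27 without control replicate 2. Its 3 pseudogene copies reached 45.7% of the summed TPM of SLC2A3 and its copies in 1 sample, so its values are uncertain.

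The hypoxia-response genes divided into those high in both treatments and those that were not. Of the 8 tested, 6 were called higher and 1 lower in high calcium (5 and 1 after median ratio rescaling), and 6 higher and 0 lower in TGFb3. Of all tested genes 46.1% were higher and 17% lower in high calcium (29.5% and 30.9% after that rescaling), and 26.5% and 33.1% in TGFb3. NDRG1, a stress-responsive gene linked to differentiation, had the largest rise of the 29 genes in both comparisons. It was at 170.5, 169.8 and 159.9 TPM in high calcium, 150.1, 165 and 173 TPM in TGFb3 and 42.5, 41.1 and 44.4 TPM in the controls. All 6 treated samples were far above the controls, and the treated groups overlapped. The log2 difference was 1.94 ± 0.057 (adjusted p = 3.1e-09) in high calcium, 1.72 relative to the median gene, and 1.90 ± 0.057 (adjusted p = 4.3e-09) in TGFb3. VEGFA, the angiogenic growth factor, was at 83.7, 89.9 and 98.1 TPM in high calcium, 106, 109.6 and 116 TPM in TGFb3 and 36.9, 32.7 and 35.3 TPM in the controls. The 3 groups did not overlap, with TGFb3 highest. VEGFA rose by log2 1.35 ± 0.067 (adjusted p = 9.5e-08) in high calcium, 1.12 relative to the median gene, and by 1.64 ± 0.067 (adjusted p = 3.4e-08) in TGFb3. BNIP3L (NIX), a mitophagy receptor, was at 36.9, 36.2 and 34.1 TPM in high calcium, 29.6, 30.9 and 33.4 TPM in TGFb3 and 16.99, 16.4 and 15.5 TPM in the controls, with both treated groups above the controls, and rose by 1.09 ± 0.062 in high calcium, 0.86 relative to the median gene, and 0.90 ± 0.062 in TGFb3. BNIP3, its relative, was at 25.2, 22.5 and 22.3 TPM in high calcium, 16.8, 17.1 and 18.4 TPM in TGFb3 and 20.7, 18.3 and 18.6 TPM in the controls. High calcium samples lay above the others, and TGFb3 overlapped the controls. BNIP3 was called higher in high calcium (0.27 ± 0.073, adjusted p = 0.0089, or 0.044 relative to the median gene) but under none of the other scalings (0.024, 0.081 and 0.048), and its TGFb3 difference was -0.13 ± 0.073 (adjusted p = 0.15).

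P4HA1 and P4HA2 encode alpha subunits of the prolyl 4-hydroxylase that matures collagen, and each responded more to a different treatment. P4HA1 (hg38 chromosome 10, 73007217 to 73096974, minus strand) was at 82.4, 83.7 and 84.5 TPM in high calcium, 49.9, 50.4 and 52.0 TPM in TGFb3 and 42.3, 42.3 and 43.8 TPM in the controls. P4HA2 (hg38 chromosome 5, 132191838 to 132295315, minus strand) was at 79.7, 71.8 and 71.7 TPM in high calcium, 145, 127 and 129 TPM in TGFb3 and 45.2, 46.2 and 48.0 TPM in the controls. In neither gene did the groups overlap, and high calcium was highest for P4HA1 and TGFb3 for P4HA2. P4HA1 rose by log2 0.95 ± 0.039 (adjusted p = 2.7e-08) in high calcium (0.72 relative to the median gene) and 0.24 ± 0.039 (adjusted p = 0.00039) in TGFb3. P4HA2 rose by log2 0.67 ± 0.062 (adjusted p = 7.9e-06) in high calcium (0.44 relative to the median gene) and 1.50 ± 0.062 (adjusted p = 3.6e-08) in TGFb3. The fibroblast markers FAP, COL1A1 and DCN reached 319 ± 3.80, 15.6 ± 1.78 and 13.9 ± 1.52 TPM in TGFb3. They were at 50.9 ± 0.524, 2.63 ± 1.15 and 7.9 ± 0.330 TPM in high calcium and 43.0 ± 3.77, 0.800 ± 0.0606 and 2.32 ± 0.494 TPM in the controls. All 3 were called higher in each treatment, beside 46.1% of all tested genes in high calcium and 26.5% in TGFb3. After median ratio rescaling 2 were called higher in high calcium, beside 29.5% of all genes. COL1A2, COL3A1, LUM and THY1 were at or near 0, and PDGFRA and PDGFRB were below 1 TPM in all samples. The part of these markers in the P4HA2 values was not tested.

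CA12, a carbonic anhydrase of the cell surface, was at 26.5, 26.3 and 26.7 TPM in high calcium, 51.0, 50.6 and 49.2 TPM in TGFb3 and 34.3, 33.4 and 33.2 TPM in the controls. High calcium samples lay below the controls and TGFb3 samples above them, each group tightly spaced. Its difference was -0.33 ± 0.042 (adjusted p = 7e-05) in high calcium, -0.56 relative to the median gene, and 0.56 ± 0.042 (adjusted p = 1.6e-06) in TGFb3. CA9, the carbonic anhydrase most often used to mark hypoxic cells, did not pass the filter. Its values were 0.172, 0.0374 and 0.423 TPM in high calcium, 0.0942, 0.0762 and 0 TPM in TGFb3 and 1.47, 0.347 and 1.26 TPM in the controls, and 1 high calcium sample lay above the lowest control while the other treated samples lay below all of them. EGLN3, the HIF prolyl hydroxylase PHD3, averaged 1.05 ± 0.266, 0.616 ± 0.275 and 0.976 ± 0.107 TPM in high calcium, TGFb3 and the controls. ANKRD37, a small ankyrin-repeat protein, was at 1.25, 1.64 and 1.56 TPM in high calcium, 0.689, 0.778 and 0.557 TPM in TGFb3 and 0.707, 0.451 and 0.715 TPM in the controls, with every high calcium sample above the other 6. ADM, which encodes the vasodilator adrenomedullin, was at 10.4, 10.9 and 10.1 TPM in high calcium, 7.80, 7.92 and 5.26 TPM in TGFb3 and 8.35, 8.61 and 7.42 TPM in the controls. ADM was not called in either comparison (0.33 ± 0.13, adjusted p = 0.053, in high calcium and -0.21 ± 0.13, adjusted p = 0.21, in TGFb3). The high calcium difference was 0.11 relative to the median gene and 0.099, 0.16 and 0.016 under the 3 other scalings, where it was not called. The high calcium difference was called without TGFb3 replicate 2 or TGFb3 replicate 3, where it stayed at 0.33. It was also called with a filter of 5 TPM, a pseudocount of 5 (0.24), only the compared groups, or the replicate number as a block. The TGFb3 difference of ADM was -0.041 without TGFb3 replicate 3.

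**Figure D5:**
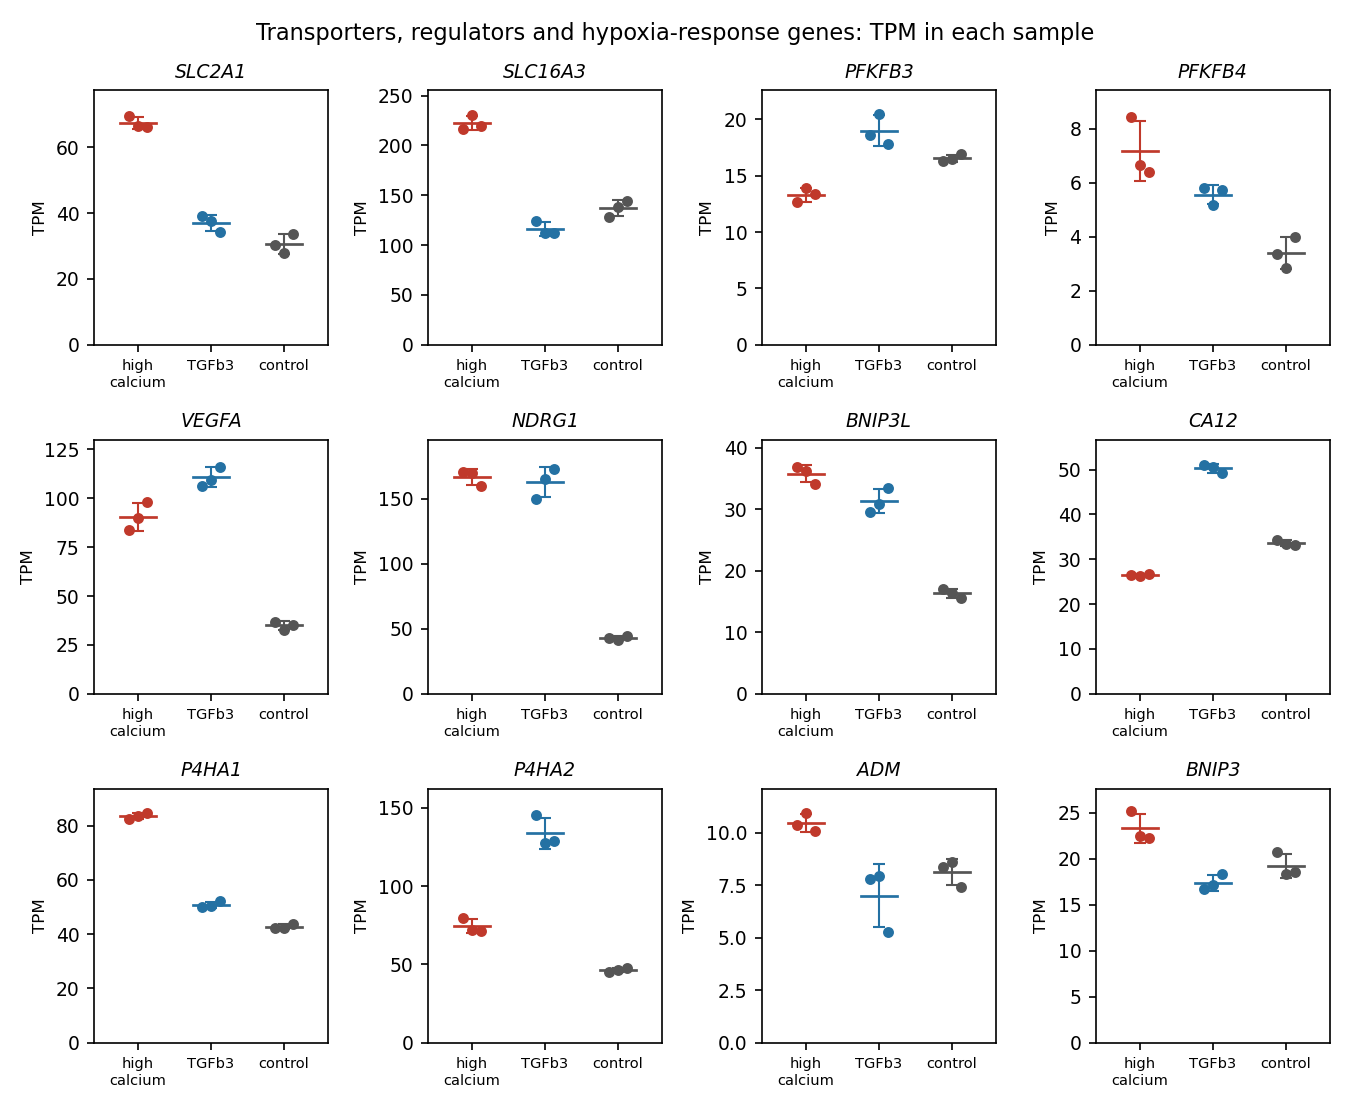
TPM of 2 transporters, the 2 regulators of phosphofructokinase and 8 hypoxia-response genes in each sample, with the group mean as a line and the SD as a bar (n = 3), in high calcium, TGFb3 and control from left to right; each axis starts at 0. NDRG1 averages 167 TPM in high calcium and 163 TPM in TGFb3, against 42.7 TPM in the controls, and P4HA2 averages 74.4, 134 and 46.5 TPM in the 3 groups.

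Set against each other, the treatments differed at most of these genes. In high calcium against TGFb3, where 66.5% of all tested genes were called, 17 of the 29 were called higher, where 50.4% of all tested genes were, and 8 lower, where 16.2% were, and the median log2 difference was 0.31 for the 29 and 0.27 for all. After median ratio rescaling 8 were higher and 13 lower, against 29.5% and 30.9% of all genes. HK2 had the largest difference (log2 2.27 ± 0.058, adjusted p = 1e-09, 2.01 relative to the median gene). The next largest rises were those of ALDOC (1.90 ± 0.13, adjusted p = 9.4e-07), PFKM (0.94 ± 0.043, adjusted p = 4.9e-08), SLC16A3 (0.93 ± 0.056, adjusted p = 3.2e-07) and SLC2A1 (0.84 ± 0.073, adjusted p = 4.1e-06). As the median of all genes was 0.27, rises in this comparison are smaller relative to the median gene, and falls larger. P4HA1 was also higher in high calcium (0.71 ± 0.039). GAPDH (0.41), ALDOA (0.38), ADM (0.54) and BNIP3 (0.40) were called higher, but not under median ratio rescaling (0.11, 0.086, 0.27 and 0.12). CA12 (-0.90 ± 0.042, adjusted p = 5.8e-08), P4HA2 (-0.84 ± 0.062, adjusted p = 1.4e-06), PKM (-0.52 ± 0.057, adjusted p = 2.2e-05), PFKFB3 (-0.48 ± 0.069) and VEGFA (-0.29 ± 0.067, adjusted p = 0.0034) were lower in high calcium than in TGFb3. LDHA was lower in high calcium as well (-0.38 ± 0.094, adjusted p = 0.0045). NDRG1 (0.037 ± 0.057, adjusted p = 0.58) was not called, and was called lower in high calcium under median ratio rescaling (-0.26) and without mitochondrial genes (-0.16). It was also below 0, and not called, under quantile normalisation (-0.14) and without TGFb3 replicate 1 (-0.019). ENO1 (0.17 ± 0.042) and LDHB (0.14 ± 0.037) were called higher in high calcium but called lower under median ratio rescaling (-0.13 and -0.16). Neither was called without mitochondrial genes or under quantile normalisation. TPI1 and PGAM1 were not called, but both were called lower in high calcium under the 3 other scalings. The 8 tested enzymes from triose-phosphate isomerase to lactate dehydrogenase gave 3 higher and 3 lower. After median ratio rescaling they gave 0 higher and 7 lower. GPI (0.31 ± 0.12, adjusted p = 0.038), SLC2A3 (0.56 ± 0.22, adjusted p = 0.044) and BNIP3L (0.19 ± 0.062, adjusted p = 0.022) were called narrowly, and none was called under the 3 other scalings. Under them the difference of GPI was 0.0092, 0.11 and 0.12, that of SLC2A3 0.38, 0.48 and 0.24 and that of BNIP3L, which turned, -0.10, -0.0027 and -0.054. The GPI call was also lost without any one high calcium sample (0.30 to 0.32), without TGFb3 replicate 1 (0.25) and without TGFb3 replicate 3 (0.22). That of BNIP3L was lost without high calcium replicate 1 (0.17) or 2 (0.18) and TGFb3 replicate 1 (0.15) or 2 (0.18). The SLC2A3 call was lost without control replicate 1 (0.56) and without any one of the 6 treated samples (0.51 to 0.62). PFKFB4 was not called (0.31 ± 0.13, adjusted p = 0.062), but was without control replicate 3 (0.31), and its difference was 0.051, 0.14 and -0.0050 under the other scalings and 0.20 without high calcium replicate 1.

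Of 14 HIF subunits, hydroxylases and partners 12 were tested, and 3 were called higher, 1 lower and 8 not in high calcium, with a median log2 difference of -0.00068. Of all tested genes 46.1% were higher and 17% lower there. In TGFb3 3 were higher, 4 lower and 5 not called, against 26.5% higher and 33.1% lower of all tested genes. After median ratio rescaling 0 were higher and 7 lower in high calcium, against 29.5% and 30.9%. HIF1A, the main inducible alpha subunit, was at 266 ± 6.04 TPM in high calcium, 222 ± 9.75 TPM in TGFb3 and 206 ± 2.65 TPM in the controls, with log2 differences of 0.37 ± 0.04 (adjusted p = 2.3e-05) and 0.11 ± 0.04 (adjusted p = 0.038). EPAS1 (HIF-2 alpha) had a difference of -0.28 ± 0.043 (adjusted p = 0.00027) in high calcium and 0.09 ± 0.043 (adjusted p = 0.095) in TGFb3. VHL, the recognition part of the ligase that removes HIF alpha, had a log2 difference of 0.26 ± 0.046 in high calcium and 0.041 ± 0.046 (adjusted p = 0.47) in TGFb3. EGLN1 (PHD2), the main HIF prolyl hydroxylase, was not called in high calcium (0.053 ± 0.067) and was lower in TGFb3 (-0.32 ± 0.067, adjusted p = 0.0019). CITED2, which competes with HIF for the coactivators CBP and p300, fell in TGFb3 to 4.40, 3.95 and 4.33 TPM, against 14.7, 14.7 and 15.3 TPM in the controls (-1.61 ± 0.069, adjusted p = 4.3e-08), and ARNT, the shared beta subunit, rose there by 0.58 ± 0.067 (adjusted p = 4.1e-05). HIF activity is set mainly at the protein level, which was not measured. Relative to the median gene, the high calcium differences were 0.14 for HIF1A, -0.50 for EPAS1, 0.039 for VHL and -0.17 for EGLN1.

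A list of 30 further hypoxia targets, 24 of them tested, had 14 higher, 3 lower and 7 not called in high calcium, and 10 higher, 10 lower and 4 not called in TGFb3. The shares of all tested genes were 46.1% and 17% in high calcium and 26.5% and 33.1% in TGFb3. After median ratio rescaling the high calcium counts were 8 higher and 7 lower, near the 29.5% and 30.9% of all genes. LOX, a collagen cross-linking enzyme, rose in both, by 0.91 ± 0.058 in high calcium and 0.97 ± 0.058 in TGFb3, and BHLHE40, a transcriptional repressor, rose by 0.93 ± 0.067 and 2.35 ± 0.067. ANGPTL4, a lipase inhibitor, had a log2 difference of 0.56 ± 0.062 in high calcium and 3.50 ± 0.062 in TGFb3. STC2, a secreted glycoprotein, and DDIT4, an inhibitor of mTORC1, went in opposite directions, with 1.25 ± 0.061 and 0.38 ± 0.046 in high calcium and -0.51 ± 0.061 and -1.06 ± 0.046 in TGFb3. Relative to the median gene, the high calcium differences were 0.69 for LOX, 0.71 for BHLHE40, 0.33 for ANGPTL4, 1.02 for STC2 and 0.16 for DDIT4. Of 31 other glycolytic isoenzymes and side-branch genes 18 were tested, with 8 higher, 4 lower and 6 not called in high calcium (6 and 8 after median ratio rescaling) and 7, 7 and 4 in TGFb3, beside the same shares of all tested genes. PFKFB2, another regulator of phosphofructokinase, rose in high calcium (1.16 ± 0.065, adjusted p = 2.2e-07, or 0.93 relative to the median gene) and was at 0.015 ± 0.065 (adjusted p = 0.86) in TGFb3. BPGM, which makes 2,3-bisphosphoglycerate, had opposite changes of -0.68 ± 0.099 (adjusted p = 0.00018) in high calcium, -0.91 relative to the median gene, and 1.35 ± 0.099 (adjusted p = 1.4e-06) in TGFb3. MPC1, a subunit of the carrier that takes pyruvate into mitochondria, was higher in high calcium (0.66 ± 0.047, adjusted p = 1.2e-06, or 0.43 relative to the median gene) and lower in TGFb3 (-0.69 ± 0.047, adjusted p = 9e-07).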

How the data were processed

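RNA of 3 high calcium, 3 TGFb3 and 3 control samples of MCF10A was sequenced as paired reads of 101 bp, per the labels' protocols. HISAT2 and hg38 are named in the submitters' processing notes. The sources used here give no version, no quantification program or annotation and no strandedness. The deposited table holds the authors' TPM for 58288 entries in 9 samples. TPM sums to 1000000 in each library and keeps no depth, so no counting interval is given, and a change in very abundant RNA moves every other value. Reads of overlapping genes and near-identical copies may have been split in ways that cannot be checked here. Besides GPI, ALDOA and ALDOC, PGK1, ENO2, LDHB, PFKFB4 and EGLN3 overlap coding genes on the same strand (ATP7A, LRRC23, AC010197.2, UCN2 and SPTSSA). PFKM, TPI1, PGK1, SLC16A3, CA9, BNIP3L, ANKRD37 and P4HA2 overlap coding genes on the opposite strand, which matters if the libraries were not stranded.

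Entries sharing a symbol (1932 entries, 253 symbols) were summed, which left 56609 symbols, and 0 value columns were unmapped. Coordinates come from GENCODE release 29, matched by Ensembl identifier, and are 1-based. The 13968 symbols that averaged 1 TPM or more were tested as log2(TPM + 1), which understates changes of low genes. A limma 3.58.1 fit (R 4.3.3) over all 9 samples, with a variance trend and 6 residual degrees of freedom, gave 3 comparisons, each with two-sided Benjamini-Hochberg adjustment over all tested genes and a threshold of 0.05. The method was tested on simulated data in which few genes changed and the median gene did not shift. That test therefore does not cover a wide shift such as the one in high calcium. Tables and figures were made with Python 3.11.15, pandas 2.3.3, numpy 2.4.6 and matplotlib 3.10.9. Promoters are from RefSeq on GRCh38.p14. A search of GENCODE transcripts found bases 21 to 50 after the start for 27 of 29 of them.

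The members and lists were chosen with earlier results of these data known. Every sample value is given for members with the 12 largest called differences from control, for those called in opposite directions or in 1 comparison with a called direct difference, and for GAPDH, PKM and LDHA. PFKP, TPI1, LDHB, ADM, ENO2, CA9 and ANKRD37 were added after their values were seen. Up to 4 called genes of each other list were eligible, and HIF1A, EPAS1, EGLN1 and VHL were named whatever their values. Some genes counted in the lists are not reported here one by one. The 20 alternatives were 2 pseudocounts (0.1 and 5), 2 filters (no minimum and 5 TPM), 3 scalings (median ratio, no mitochondrial genes, quantile), the replicate number as a block, only the compared groups, no variance trend, the highest entry per symbol, and each sample left out in turn.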

Additional observations from a re-analysis of the deposited data

How the results depend on the processing

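Under the 20 alternatives 1625 of the members' log2 differences kept direction and side of the threshold, 66 lost their call, 27 gained one and 19 turned, and 229 counts and sums stayed while 20 moved. Of the 19 turns of direction 17 came from the 3 scalings and 2 from leaving out TGFb3 replicate 1, all 20 moves came from the scalings, and the cause was not tested. Under median ratio rescaling 4117 genes were higher and 4312 lower in high calcium against control, and 4114 and 4306 against TGFb3, where 8 of these genes were then higher and 13 lower. Quantile normalisation gave 3991 and 4464 against control, and 4364 and 4181 against TGFb3, with 10 of these genes higher. With mitochondrial genes left out 3791 were lower against control and 3468 against TGFb3. The summed TPM of the 17 enzymes became 9186 (median ratio), 9936 (quantile) and 11809 (no mitochondrial genes) in high calcium, 10811 (median ratio) and 12947 (no mitochondrial genes) in TGFb3, and 13369 and 16499 under the same settings in the controls. Differences that turned in high calcium against control were ALDOA at -0.14, -0.078 and -0.017 (median ratio, no mitochondrial genes and quantile), HK1 at -0.0025 (median ratio) and GAPDH at -0.098 (median ratio) and -0.039 (no mitochondrial genes). Against TGFb3 they were, under median ratio and then without mitochondrial genes, ENO1 at -0.13 and -0.024, LDHB at -0.16 and -0.055, NDRG1 at -0.26 and -0.16, and BNIP3L at -0.10, -0.0027 and, under quantile normalisation, -0.054, where NDRG1 was at -0.14 and PFKFB4 at -0.0050. Without TGFb3 replicate 1 TPI1 was at 0.037 and NDRG1 at -0.019 against TGFb3, in ranges over the left-out samples of -0.055 to 0.037 and -0.019 to 0.083. Leaving out each sample gave 15 to 16 of these genes higher and 9 lower in high calcium against control, 9 to 10 and 13 to 16 in TGFb3, and 14 to 18 and 8 lower between the treatments. Deviations from the group means correlated at -0.075 to -0.004 between same-numbered samples and at -0.035 to 0.090 between differently numbered ones. No deviation shared by number was seen. With labels that do not describe the replicates, this does not show whether samples of one number shared a culture or day. With the replicate number as a block, 16 were higher and 9 lower in high calcium, 9 and 14 in TGFb3 and 17 and 8 between the treatments. ADM then gained its high calcium call, and GAPDH (high calcium) and PFKFB3 (TGFb3) lost theirs. TPM keeps no depth, so low members such as SLC2A3, CA9 and ENO2 are the least certain.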

Other observations

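Of 13 genes of the pentose phosphate and hexosamine branches, all tested, 8 were called higher, 3 lower and 2 not in high calcium (6 and 4 after median ratio rescaling), and 6 higher, 6 lower and 1 not called in TGFb3. Of all tested genes 46.1% were higher and 17% lower in high calcium (29.5% and 30.9% after that rescaling), and 26.5% and 33.1% in TGFb3. GFPT1, the entry enzyme of the hexosamine branch, was at 118, 118 and 121 TPM in high calcium, 38.6, 41.5 and 39.1 TPM in TGFb3 and 23.4, 24.7 and 26.2 TPM in the controls. Its high calcium samples were far above the other 6, and the log2 difference was 2.22 ± 0.051 (adjusted p = 5.6e-10) in high calcium and 0.66 ± 0.051 (adjusted p = 2e-06) in TGFb3. GFPT2, its paralog, rose by 1.26 ± 0.054 in high calcium and 1.29 ± 0.054 in TGFb3, and PGM3, a later step of that branch, by 1.21 ± 0.054 and 1.00 ± 0.054. In the pentose phosphate pathway H6PD, the form inside the endoplasmic reticulum, rose by 1.70 ± 0.089 in high calcium and 0.35 ± 0.089 in TGFb3, and PGLS by 1.24 ± 0.065 and 0.47 ± 0.065. TKT, the transketolase, and RPIA, an isomerase of ribose 5-phosphate, had differences of -0.76 ± 0.082 (adjusted p = 2.2e-05) and -1.16 ± 0.07 (adjusted p = 3.8e-07) in TGFb3, and of 0.16 ± 0.082 (adjusted p = 0.12) and -0.45 ± 0.07 (adjusted p = 0.00029) in high calcium. Relative to the median gene, the high calcium differences were 2.00 for GFPT1, 1.04 for GFPT2, 0.99 for PGM3, 1.47 for H6PD, 1.01 for PGLS, -0.069 for TKT and -0.67 for RPIA.

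The glycogen phosphorylases, which release glucose 1-phosphate, divided between the treatments. PYGB, the brain form, was at 339.7, 348 and 333 TPM in high calcium, 186, 170.4 and 183 TPM in TGFb3 and 173, 176 and 180.0 TPM in the controls, with high calcium above the other 6 samples and TGFb3 overlapping the controls. PYGL, the liver form, was at 131, 128 and 127 TPM in high calcium, 240.5, 236 and 228 TPM in TGFb3 and 116, 122 and 114 TPM in the controls, with TGFb3 above the others. PYGB had differences of 0.95 ± 0.041 (adjusted p = 3.9e-08) in high calcium and 0.028 ± 0.041 (adjusted p = 0.58) in TGFb3, and PYGL 0.13 ± 0.04 (adjusted p = 0.016) and 1.00 ± 0.04 (adjusted p = 2.8e-08). Relative to the median gene the high calcium differences were 0.72 for PYGB and -0.094 for PYGL, so the called difference of PYGL lay below the median of all tested genes.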
